A study of Mus musculus with 95 samples.

Results

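The proteasome genes of mouse liver were taken as every measured gene whose symbol starts with Psm, followed by a letter from a to g and a digit. This rule found 42 of the 16464 genes on the arrays that carried a gene symbol. It named 5 genes of the alpha ring, 3 structural and 2 constitutive catalytic genes of the beta ring, 4 inducible or thymus catalytic genes, 5 ATPases and 10 other subunits of the regulatory particle. It also named 3 chaperones of the base, 3 activators, 1 inhibitor and 4 chaperones of the core. The last 2 matches, Psmc3ip and Psme3ip1, are not subunits: Psmc3ip encodes a meiotic recombination factor. Psma3, Psma4, Psma5, Psmb3, Psmb5, Psmc1, Psmd2 and Psme2 were not analysed here.

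The proteasome is the large protease that degrades ubiquitin-tagged proteins in the cytosol and nucleus. Its barrel-shaped core is closed by outer alpha rings and carries its catalytic sites in inner beta rings. A regulatory particle, with a base of ATPases and a lid, binds ubiquitin chains, removes them and feeds the unfolded protein into the core. In cells exposed to interferon the constitutive catalytic subunits are replaced by Psmb8, Psmb9 and Psmb10, which form the immunoproteasome and favour peptides for antigen presentation. Subunit genes are known to be induced together when proteasome capacity is short, through the transcription factor encoded by Nfe2l1, and they are also known targets of the antioxidant factor NRF2 in the mouse.

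Expression was measured on 95 arrays of liver from male C57BL/6 mice aged 10 weeks, all dosed by oral gavage. Amiodarone, an antiarrhythmic drug, was given at 6.7, 20 and 60 mg/kg, valproic acid, an antiepileptic drug, at 125, 250 and 500 mg/kg, and tetracycline, an antibiotic, at 14.8, 44 and 133 mg/kg. Day 1 and day 4 groups received the highest dose of a compound or a vehicle and held 4 arrays each, while day 11 groups covered all 3 doses and held 5 arrays each, 21 groups in all. The vehicle was phosphate-buffered saline (PBS) for amiodarone and valproic acid, and tetracycline had its own, water with ascorbic acid. Every treated group was compared with the vehicle arrays of its day in limma, and a gene was called when its Benjamini-Hochberg adjusted p, computed across the 16464 genes, was under 0.05. Whether every array is a separate mouse is not in the labels, so p-values here describe spread among arrays, which may be technical, and precision is bounded by how many arrays a group holds. Values are log2 expression, so that a difference of 1 is a doubling, and levels are set against the median gene only to show which genes were bright or dim, with no order drawn between members.

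All 6 hepatocyte markers measured were among the brightest genes, from Asgr1 at the 98.2 percentile upward, with Alb at a mean of 13.8. Array medians lay between 3.08 and 3.15. Of the 42 members 39 lay above the median gene. The exceptions were Psma8, an alpha subunit of the testis, Psmb11, a catalytic subunit of the thymus, and Psmc3ip, each below the array median in all 21 groups. Array 62, of amiodarone at 60 mg/kg on day 11, stood apart in the genes of the interferon response: over 15 such genes its median deviation from the PBS mean was 1.39, against -0.14 to 0.25 in the other 4 arrays of its group. Results for that group are given below with and without it. In a bulk tissue, fewer cells of a type and less RNA per cell cannot be told apart.

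The promoters of 4 members called in more than 1 treated group are shown. Other members, among them Psmc5 and Psme4, were also called in more than 1, so these 4 do not stand for all of them. Psmd4 encodes a ubiquitin receptor of the regulatory particle, Psmd14 its deubiquitinase, Psma7 an alpha ring subunit and Psme1 an activator cap. Each sequence runs 5′ to 3′ along the gene from 250 bases before to 50 bases after the RefSeq start (GRCm38.p6), and capitals mark matches to the motifs described after the sequences.
Psmd4 promoter (chr3:95042565-95042864, minus strand): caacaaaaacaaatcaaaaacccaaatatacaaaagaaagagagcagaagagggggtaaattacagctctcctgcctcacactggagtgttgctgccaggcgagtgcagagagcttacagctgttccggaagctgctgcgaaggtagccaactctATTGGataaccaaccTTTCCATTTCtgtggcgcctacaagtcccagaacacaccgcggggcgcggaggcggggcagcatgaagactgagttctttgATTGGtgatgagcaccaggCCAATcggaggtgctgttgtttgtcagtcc
Psmd14 promoter (chr2:61711444-61711743, plus strand): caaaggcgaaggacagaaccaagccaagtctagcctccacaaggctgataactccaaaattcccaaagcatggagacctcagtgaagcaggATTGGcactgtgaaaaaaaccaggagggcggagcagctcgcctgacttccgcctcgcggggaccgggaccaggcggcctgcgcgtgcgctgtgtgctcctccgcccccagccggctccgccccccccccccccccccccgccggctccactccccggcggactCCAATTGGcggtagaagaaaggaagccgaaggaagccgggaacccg
Psma7 promoter (chr2:180042415-180042714, minus strand): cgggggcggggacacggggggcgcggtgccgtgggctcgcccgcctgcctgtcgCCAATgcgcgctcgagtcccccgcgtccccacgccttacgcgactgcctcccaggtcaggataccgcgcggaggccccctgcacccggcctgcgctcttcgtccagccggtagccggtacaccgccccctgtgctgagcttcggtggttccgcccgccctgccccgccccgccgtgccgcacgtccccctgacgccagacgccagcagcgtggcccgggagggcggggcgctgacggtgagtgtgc
Psme1 promoter (chr14:55578244-55578543, plus strand): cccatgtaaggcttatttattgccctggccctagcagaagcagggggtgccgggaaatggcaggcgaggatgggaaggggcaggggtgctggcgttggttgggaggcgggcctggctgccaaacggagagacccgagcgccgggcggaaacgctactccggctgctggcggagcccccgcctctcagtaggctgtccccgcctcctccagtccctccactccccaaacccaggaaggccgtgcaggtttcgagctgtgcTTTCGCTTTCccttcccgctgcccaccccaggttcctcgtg

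Of the 42 members, 34 had a promoter in the RefSeq table, 37 promoters in all, and they were searched on both strands. The core of the antioxidant response element, TGACNNNGC, stood in 13.5% of member promoters and in 12.4% of all 32851 promoters in the table. The CCAAT box, spelled CCAAT, stood in 35.1% against 37.4%, and the interferon-stimulated response element, searched as GAAA followed by any 2 bases and GAAA, in 10.8% (4 of 37) against 3.44%. This last element stood in 10.5% of the promoters of members called higher with amiodarone on day 4 and in 11.1% of those of the other members. Among its carriers were Psmd9 and Psmg4, which were called in no treated group. The shown promoters of Psmd14, Psma7 and Psmd4 carry CCAAT, and those of Psmd4 and Psme1 carry the interferon-stimulated response element on the opposite strand, before the start in Psmd4 and after it in Psme1. In Psmd14, matches on opposite strands overlap. A match is a string of letters and was not tested as a binding site.

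Amiodarone at 60 mg/kg for 4 days raised the largest number of proteasome genes: 20 of the 42 members were called higher and 0 lower. In the same comparison 4.01% of all 16464 genes were called higher, 2.2% were called lower and 6.21% were called in either direction. The median log2 fold change was 0.27 over the members and -0.01 over all genes, and 35 of the 42 members were above 0, as were 46.7% of all genes. For 25 members every amiodarone array lay above every PBS array, as it did for 6.66% of all genes. The rises were small, the largest a 1.47-fold change. In each of the 4 amiodarone arrays the median member lay 0.22 to 0.32 above the PBS mean of day 4, while the PBS arrays ran from -0.04 to 0.01, so the arrays of the groups did not overlap. In the plot of the shift by array, no other treated group has all its arrays above 0.11, the highest value of a PBS array on any day.

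**Figure D1:**
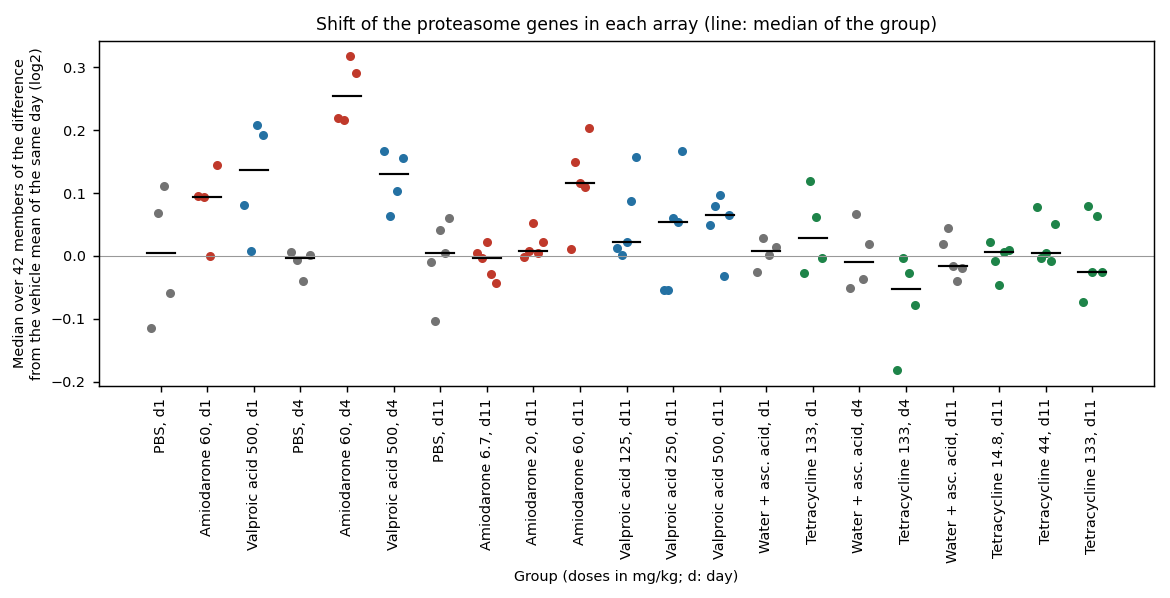
Each point is 1 array, and the vertical axis gives the median over the 42 members of the difference from the vehicle mean of the same day on the log2 scale, with the horizontal line at the median of the group and the 21 groups along the horizontal axis. The 4 arrays of amiodarone at 60 mg/kg on day 4 run from 0.22 to 0.32, and the PBS arrays of that day run from -0.04 to 0.01.

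The rise on day 4 reached most of the regulatory particle. Of its 10 subunits that are not ATPases 7 rose, and all 10 had groups that did not overlap. Psmd4 (Entrez Gene 19185), the ubiquitin receptor, read 8.44, 8.51, 8.46 and 8.37 in the PBS arrays and 8.87, 9.00, 8.97 and 9.16 with amiodarone. The lowest treated array was therefore well above the highest PBS array, and the difference was 0.56 ± 0.08 (SE, adjusted p = 2.9e-07 in limma). Psmd14 (Entrez Gene 59029), the enzyme that removes ubiquitin chains before degradation, read 9.32, 9.09, 9.15 and 9.31 against 9.63, 9.82, 9.86 and 9.74. It was higher by 0.55 ± 0.10 (adjusted p = 3.2e-05), again with no overlap. Psmd11, a lid subunit, rose by 0.56 ± 0.14 (adjusted p = 0.0045), from 8.15, 8.29, 8.16 and 8.40 to 8.66, 8.70, 8.87 and 9.00. Here too the lowest treated array stood above every PBS array. Psmd13, also of the lid, read 7.45, 7.45, 7.11 and 7.34 against 7.66, 7.89, 7.61 and 7.96, a rise of 0.44 ± 0.09 (adjusted p = 0.00054) with no overlap. Psmd1, the scaffold of the base, rose by 0.41 ± 0.08 (adjusted p = 0.00011). Psmd8 and Psmd12 of the lid rose by 0.32 ± 0.08 and 0.29 ± 0.08, and the call of Psmd12 held in 6 of the 8 fits that left out 1 array. The lid genes Psmd3, Psmd6 and Psmd7 were not called, at 0.27 ± 0.09, 0.15 ± 0.07 and 0.34 ± 0.13 (adjusted p = 0.081, 0.28 and 0.13).

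Among the ATPases, the motor subunits that unfold the substrate, 4 of 5 rose on day 4. Psmc4 rose by 0.43 ± 0.12 (adjusted p = 0.011), from 8.44, 8.51, 8.28 and 8.57 to 8.72, 8.79, 8.97 and 9.03, with no overlap. Psmc5, Psmc3 and Psmc2 rose by 0.30 ± 0.09, 0.29 ± 0.07 and 0.25 ± 0.07, and Psmc6 was at 0.16 ± 0.10 (adjusted p = 0.42). The calls of Psmc2, Psmc4 and Psmc5 were the less stable of these, holding in 3, 5 and 2 of the 8 fits that left out 1 array.

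In the core particle all 3 structural beta genes and 3 of the 5 alpha ring genes rose, and 0 of the 6 catalytic genes were called. The 6 include Psmb11 of the thymus, which was below the array median. The difference between ring and catalytic genes was not tested. Psmb4 moved from 10.25, 10.27, 10.21 and 10.33 to 10.57, 10.60, 10.68 and 10.70, a rise of 0.37 ± 0.08 (adjusted p = 0.00095). Psmb2 moved from between 9.58 and 9.62 to between 9.87 and 9.94, a rise of 0.31 ± 0.07 (adjusted p = 0.0029). Its arrays lay close together, with SDs of 0.02 and 0.03. Psmb1 rose by 0.28 ± 0.08 (adjusted p = 0.021), a call that held in 4 of the 8 fits without 1 array. In the alpha ring, Psma1 (Entrez Gene 26440) read 8.96, 9.00, 9.04 and 9.18 with PBS and 9.47, 9.45, 9.61 and 9.58 with amiodarone, 0.48 ± 0.08 higher (adjusted p = 1.9e-05). Psma7 and Psma6 rose by 0.30 ± 0.07 and 0.23 ± 0.06, and the call of Psma6 held in 5 of the 8 fits without 1 array. Psma2 stood just outside the threshold at 0.23 ± 0.08 (adjusted p = 0.054), and Psma8 was at -0.01.

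The constitutive catalytic genes were not called on day 4. Psmb7, the trypsin-like subunit, was at 0.39 ± 0.15 (adjusted p = 0.1), with PBS arrays from 7.91 to 8.08 and amiodarone arrays from 8.28 to 8.54. These arrays did not overlap, but the spread of Psmb7 over all groups was wide, with an SD of 0.21. Psmb6, the caspase-like subunit, was at 0.15 ± 0.07 (adjusted p = 0.30). The inducible catalytic genes Psmb8 and Psmb10 were at -0.01 ± 0.18 and -0.08 ± 0.13, and the 95% interval of Psmb8 ran from -0.36 to 0.35. Psmb9 was at 0.37 ± 0.21 (adjusted p = 0.40). The chaperones of core assembly, Psmg1 to Psmg4, were not called, at 0.10, 0.04, -0.02 and 0.26.

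Accessory factors moved unevenly on day 4. Psme1 (Entrez Gene 19186), a subunit of the cap that opens the core without ATP and that is known to be induced by interferon, read 9.24, 9.09, 9.15 and 8.97 with PBS and 9.63, 9.53, 9.64 and 9.56 with amiodarone. It was 0.48 ± 0.10 higher with no overlap (adjusted p = 0.00028), while the activators Psme3 and Psme4 were at 0.15 ± 0.10 and 0.13 ± 0.06 and were not called. Psmf1, a proteasome inhibitor of the core, rose by 0.32 ± 0.08 (adjusted p = 0.0066). The base chaperone Psmd5 rose by 0.32 ± 0.10 (adjusted p = 0.045), a call that held in 1 of the 8 fits without 1 array, and its partners Psmd9 and Psmd10 were at -0.11 ± 0.10 and 0.02 ± 0.12. Without amiodarone array 69 the number of members called was 13 in place of 20.

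**Figure D2:**
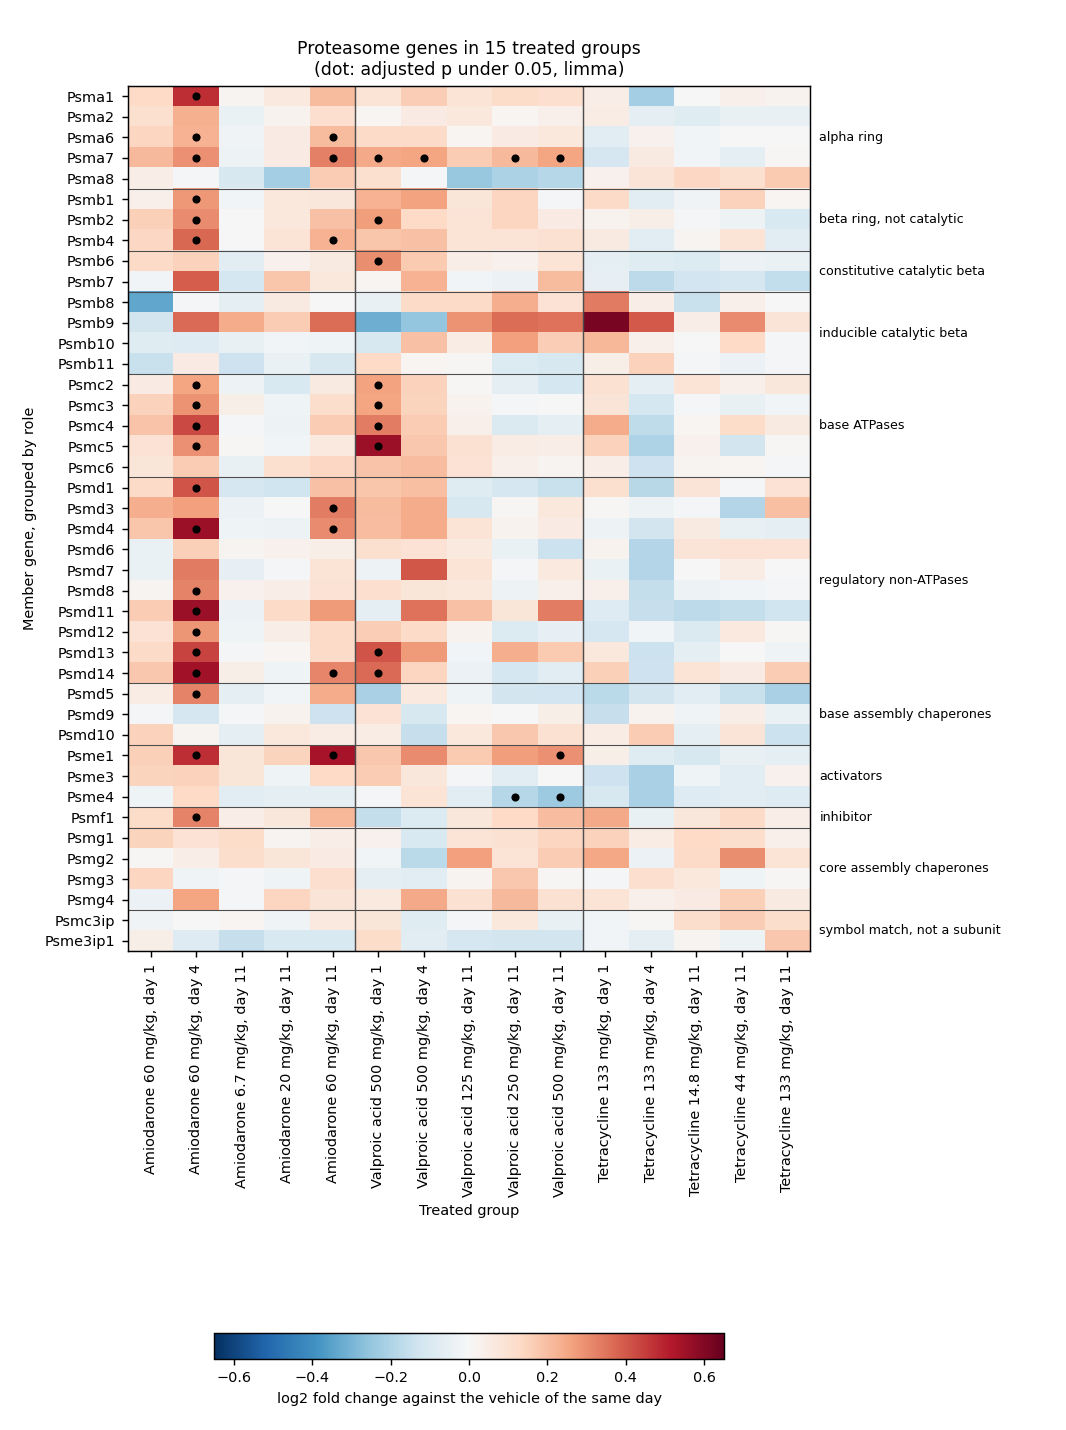
Rows are the 42 members grouped by role, columns are the 15 treated groups, and colour gives the log2 fold change against the vehicle of the same day, with a black dot at an adjusted p under 0.05. The column of amiodarone at 60 mg/kg on day 4 carries 20 dots, that of valproic acid at 500 mg/kg on day 1 carries 9, and the 5 tetracycline columns carry 0.

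Genes that work with the proteasome but carry other symbols were measured alongside. Of 15 such partners and regulators 3 rose on day 4 and 0 fell, all 15 were above 0, and the median was 0.18. Those that rose were the deubiquitinase gene Usp14 (0.38 ± 0.08, adjusted p = 0.00031), the core maturation factor gene Pomp (0.23 ± 0.06, adjusted p = 0.013) and the thioredoxin-like gene Txnl1 (0.18 ± 0.06, adjusted p = 0.033). Of 7 genes of ubiquitin handling and the unfoldase p97, 3 rose: the p97 cofactors Nploc4 (0.40 ± 0.10) and Ufd1 (0.27 ± 0.08) and the ubiquitin-binding autophagy receptor Sqstm1 (0.36 ± 0.11). Of 11 NRF2 antioxidant genes 5 rose and 0 fell, with a median of 0.22, among them Gsr, which encodes glutathione reductase (0.64 ± 0.11), and Taldo1 of the pentose phosphate pathway (0.46 ± 0.12). On day 11 of amiodarone at 60 mg/kg, where fewer members were called, 5 of the 11 NRF2 genes rose and 1 fell, with a median of 0.26. Heat shock genes had 1 of 6 higher on day 4, Hspe1 of the mitochondrial chaperonin. The part of these genes in the proteasome values was not tested.

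Markers of other liver cells were read in the same arrays. Of 12 Kupffer cell and macrophage markers 0 were called on day 4 in limma and 0 had an unadjusted p under 0.05. Their median was 0.21, and their summed level, the log2 of the sum of their linear values, ran from 10.6 to 11.0 with amiodarone and from 10.0 to 11.2 with PBS. Of 15 interferon genes 1 rose, Usp18 (0.85 ± 0.20), with a median of 0.34, and of 11 genes of class I antigen presentation 0 were called. Of 14 lymphocyte and NK cell markers 11 lay below the array median in both groups, and their summed level ran from 7.07 to 7.29 with amiodarone and from 7.00 to 7.40 with PBS. Other lists were lower with amiodarone on day 4, with no overlap of their summed levels. Of 7 endothelial markers 0 were called (2 at an unadjusted p under 0.05), at 9.06 to 9.18 against 9.21 to 9.48 with PBS. Of 7 stellate cell and fibroblast markers 1 fell, Reln, at 9.99 to 10.20 against 10.28 to 10.36. Of 6 hepatocyte markers 1 fell, the fibrinogen gene Fga (-0.23 ± 0.07), at 15.29 to 15.31 against 15.32 to 15.38. The part of any of these in the proteasome values was not tested.

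Amiodarone at 60 mg/kg gave weaker values on day 1 and fewer calls on day 11. On day 1, 0 of the 42 members were called in limma, where 0.796% of all genes were. The member median was 0.10, 31 of 42 were above 0 (48.8% of all genes), and 7 had an unadjusted p under 0.05, with Psmd3 at 0.24 ± 0.09 (adjusted p = 0.35) the highest. On day 11, 7 members rose and 0 fell, against 4.24% of all genes called higher, 2.81% called lower and 7.05% called in either direction, and the member median was 0.11. For 5 members the groups did not overlap with amiodarone higher, as for 3.64% of all genes. Of the 20 genes called on day 4 and the 7 called on day 11, 6 were shared, 30% of the first and 85.7% of the second. They were Psma6, Psma7, Psmb4, Psmd4, Psmd14 and Psme1, and the gene called on day 11 alone was Psmd3.

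Psme1 changed most on day 11. It read 9.22, 8.87, 8.88, 9.01 and 9.10 in the PBS arrays and 9.53, 9.39, 9.47, 9.22 and 10.14 with amiodarone. The highest value, of array 62, was far from the others, and 1 amiodarone array reached no higher than the top PBS array. The difference was 0.54 ± 0.09 (adjusted p = 2.9e-06), and without array 62 it was 0.39 (adjusted p = 0.00024). The call of Psme1 was lost in a fit to the 2 groups alone. Psma7 read 9.12, 9.01, 9.21, 9.18 and 9.00 with PBS and 9.23, 9.48, 9.42, 9.41 and 9.60 with amiodarone, 0.33 ± 0.06 higher with no overlap (adjusted p = 0.00016). Psmd4 read 8.60, 8.49, 8.62, 8.51 and 8.57 against 8.90, 8.87, 8.72, 8.78 and 9.05. This was a rise of 0.31 ± 0.07 (adjusted p = 0.0016), also without overlap. Psmd14 read 9.39, 9.38, 9.43, 9.31 and 9.60 against 9.67, 9.86, 9.72, 9.76 and 9.69, a rise of 0.32 ± 0.09 (adjusted p = 0.012) with no overlap. Psmd3 read 7.27, 6.83, 6.98, 6.79 and 7.08 against 7.38, 7.23, 7.38, 7.21 and 7.41, a rise of 0.33 ± 0.08 (adjusted p = 0.0051). For Psmd3, 2 amiodarone arrays lay below the highest PBS array. Psmb4, from 10.11 to 10.45 with PBS and from 10.27 to 10.69 with amiodarone, rose by 0.22 ± 0.07, and Psma6 rose by 0.21 ± 0.06, both with overlap. In a fit to the 2 groups alone the calls of Psmd3, Psmb4 and Psma6 were lost too. The calls of Psmb4 and Psma6 held in 3 and 7 of the 10 fits that left out 1 array, and 6 members were called without array 62. Without amiodarone array 31 the count was 4.

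Markers of liver cells differed in the same day 11 arrays. Of 6 hepatocyte markers all were below 0 and 2 fell, Fga (-0.33 ± 0.07) and Ttr (-0.10 ± 0.03), with a summed level of 15.24 to 15.28 against 15.31 to 15.38 with PBS. Of 7 endothelial markers 1 fell, Clec4g (-0.40 ± 0.07), at 9.02 to 9.27 against 9.42 to 9.46. The arrays of the groups did not overlap in either list. Of 7 stellate cell and fibroblast markers 2 fell, Reln and Dcn, at 10.02 to 10.31 against 10.30 to 10.46, and of 12 Kupffer cell and macrophage markers 0 were called in limma and 0 had an unadjusted p under 0.05. The 4 neutrophil markers, 0 called and 1 at an unadjusted p under 0.05, summed to 5.19 to 8.94 against 5.15 to 6.25. The median of their summed level was 5.32 with amiodarone and 5.37 with PBS, so the group was not higher at its median. The part of these cells in the proteasome values was not tested.

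The effect of amiodarone was not shown to differ between days for any member. The differences between days 4 and 1 had a median of 0.20 over the members, limma called 0 of the 42, and 12 had an unadjusted p under 0.05. Psmd4 had the smallest p of these, with a difference of 0.38 ± 0.11 (adjusted p = 0.12). Between days 11 and 1 the median was 0.06, with 0 called in limma and 1 at an unadjusted p under 0.05. Between days 11 and 4, a comparison added after the data had been seen, it was -0.12, with 0 called in limma and 6 at an unadjusted p under 0.05. Over all genes 0.541%, 0.109% and 0% were called in these comparisons.

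At the lower amiodarone doses on day 11 the proteasome genes stood close to PBS. At 6.7 mg/kg the member median was -0.02 and at 20 mg/kg it was 0.02. Limma called 0 members at either dose, and 0 had an unadjusted p under 0.05, where 0% and 0.322% of all genes were called. Across vehicle and the 3 doses, 8 members had a rising slope and 0 a falling one, against 4.21% and 2.81% of all genes, 7.02% in all. Psme1 had the steepest, 0.17 ± 0.03 per dose step (adjusted p = 3.8e-06), and its means were 9.02 with PBS, 9.09 at 6.7 mg/kg, 9.16 at 20 mg/kg and 9.55 at 60 mg/kg. Most of the rise in these means lay at the last step. Psma7 and Psmd3 had slopes of 0.11 ± 0.02 and 0.10 ± 0.03, and Psma6, Psmb2, Psmb4, Psmd4 and Psmd14 ranged from 0.06 to 0.09. A called slope leaves unsaid whether each dose differed.

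**Figure D3:**
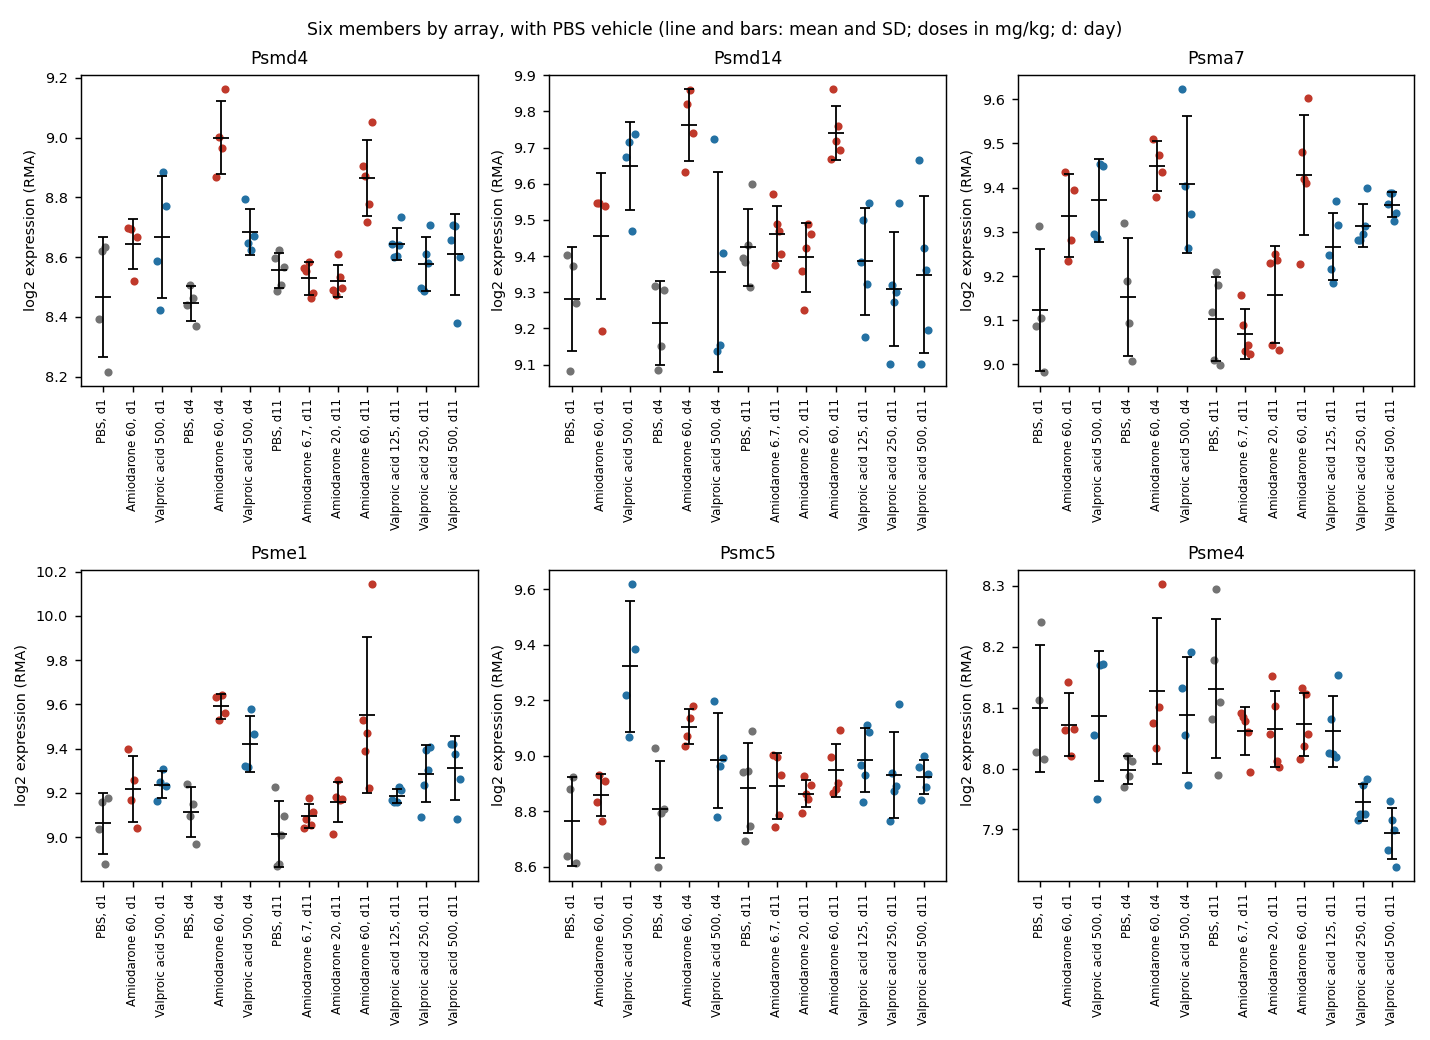
Each panel shows 1 gene, each point 1 array, with log2 expression on the vertical axis, the PBS, amiodarone and valproic acid groups along the horizontal axis, and a black line with bars for the mean and SD. With amiodarone at 60 mg/kg Psmd4 has means of 9.00 on day 4 and 8.86 on day 11, and Psmd14 of 9.76 and 9.74, Psmc5 is highest with valproic acid at 500 mg/kg on day 1 (mean 9.32), and Psme4 is lowest with valproic acid at 500 mg/kg on day 11 (mean 7.89).

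Valproic acid at 500 mg/kg raised proteasome genes on day 1. Of the 42 members 9 rose and 0 fell, a count to be read against 7.99% of all genes called higher and 7.73% called lower in a comparison that changed many genes, 15.7% in all. The member median was 0.11 and that of all genes 0.01. For 5 members every treated array lay above every PBS array, as for 6.97% of all genes. The ATPases made up the largest part, with 4 of 5 higher. Psmc5 (Entrez Gene 19184) read 8.64, 8.88, 8.92 and 8.61 with PBS and 9.22, 9.07, 9.62 and 9.38 with valproic acid. Its groups did not overlap and differed by 0.56 ± 0.09 (adjusted p = 1.4e-06), the largest rise of any member in this comparison. Psmc4 read 8.21, 8.57, 8.70 and 8.37 against 8.55, 8.60, 9.06 and 8.99, a rise of 0.33 ± 0.12 (adjusted p = 0.037). Psmc2 and Psmc3 each rose by 0.26 ± 0.07. The arrays of these 3 genes overlapped with those of PBS.

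Psmd13 and Psmd14 of the regulatory particle and 3 core genes made up the rest of the day 1 calls. Psmd13 read 7.17, 7.58, 7.45 and 7.17 against 7.75, 7.71, 7.78 and 7.78, a rise of 0.41 ± 0.09 (adjusted p = 0.00046) with no overlap. Psmd14 read 9.40, 9.08, 9.37 and 9.27 against 9.67, 9.71, 9.47 and 9.74, a rise of 0.37 ± 0.10 (adjusted p = 0.0037). Both kept their groups apart. Psmb6 rose by 0.30 ± 0.07 (adjusted p = 0.0016), from 9.86, 10.23, 10.17 and 9.94 to 10.35, 10.15, 10.50 and 10.41, with overlap. Of the 2 constitutive catalytic genes it was called here, and Psmb7 was called in none of the 15 treated groups. Psmb2 rose by 0.27 ± 0.07 (adjusted p = 0.0039), from 9.53, 9.67, 9.73 and 9.55 to 9.76, 9.74, 10.02 and 10.05, with no overlap. Psma7 rose by 0.25 ± 0.07 with overlap. When the fit held no arrays but those of the 2 groups, 3 members were called in place of 9: Psmc5, Psmd13 and Psmd14. The call of Psmc4 held in 4 of the 8 fits without 1 array.

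The members called with valproic acid on day 1 were mostly those called with amiodarone on day 4. The lists shared 8 genes, 40% of the 20 and 88.9% of the 9, and used different PBS arrays. The gene called with valproic acid alone was Psmb6. Partners of the proteasome moved both ways with valproic acid on day 1. Of 15 partners 2 rose, Pomp (0.20 ± 0.06) and Txnl1 (0.17 ± 0.06), and 4 fell. Those were the deubiquitinase genes Usp14 (-0.25 ± 0.08) and Uchl5 (-0.31 ± 0.08), the proteasome adaptor gene Ecpas (-0.57 ± 0.14) and Zfand5 (-0.54 ± 0.13), which encodes an activator of the proteasome. Of 11 NRF2 genes 0 rose and 1 fell, Gclc, which encodes a subunit of the enzyme that starts glutathione synthesis (-0.89 ± 0.17). Of 4 neutrophil markers 2 rose in these arrays, S100a8 (2.14 ± 0.59) and S100a9 (2.42 ± 0.63), with a summed level of 5.75 to 8.15 against 5.23 to 5.37 with PBS. Of 15 interferon genes 1 rose and 3 fell (median -0.26). Of 6 hepatocyte markers 2 rose and 2 fell, of 7 endothelial markers 1 rose and 0 fell, of 7 stellate cell and fibroblast markers 1 rose and 2 fell, and of 14 lymphocyte and NK cell markers 1 fell. Their part in the proteasome values was not tested.

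**Figure D4:**
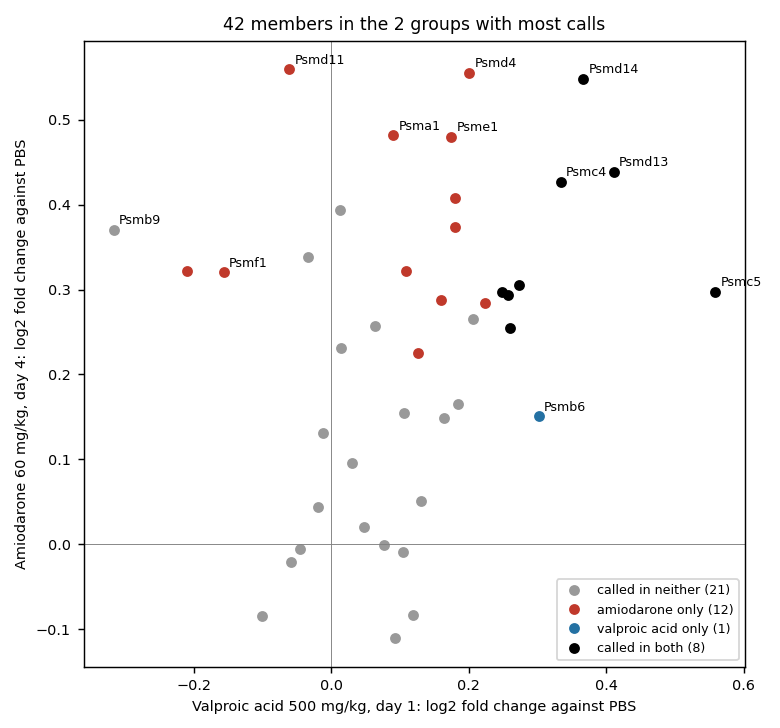
Each point is 1 member, with its log2 fold change for valproic acid at 500 mg/kg on day 1 on the horizontal axis and for amiodarone at 60 mg/kg on day 4 on the vertical axis, each against PBS of its day. In black are the 8 members called in both, in red the 12 called with amiodarone alone, in blue Psmb6, called with valproic acid alone, and in grey the 21 called in neither.

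On later days of valproic acid few members were called. On day 4 Psma7 alone rose, by 0.26 ± 0.07 (adjusted p = 0.035), from 9.32, 9.19, 9.09 and 9.01 to 9.62, 9.40, 9.26 and 9.34, with overlap. That call held in 3 of the 8 fits without 1 array. The member median was 0.13, and 15 members had an unadjusted p under 0.05. Of the members 2.38% were called, near the 2.36% of all genes (1.32% higher and 1.04% lower). For 8 members the groups did not overlap with valproic acid higher, as for 3.65% of all genes. Of the 12 Kupffer cell and macrophage markers 7 rose in the same arrays (median 0.72), with a summed level of 10.9 to 11.7 against 10.0 to 11.2 with PBS. Endothelial markers, with 1 of 7 called higher (Clec4g, 0.46 ± 0.08), summed to 9.58 to 9.89 against 9.21 to 9.48. Stellate cell and fibroblast markers, with 1 of 7 called higher (Dcn, 0.37 ± 0.09), summed to 10.59 to 10.61 against 10.28 to 10.36. Arrays of the last 2 lists did not overlap with PBS, and the part of these cells in the proteasome values was not tested.

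On day 11, 125 mg/kg gave 0 called members in limma (2 at an unadjusted p under 0.05, and 0.0547% of all genes called). At 250 mg/kg 1 rose and 1 fell (2.76% and 1.49% of all genes, 4.26% in all), and at 500 mg/kg 2 rose and 1 fell (5.89% and 3.14%, 9.03% in all). Of the members 4.76% and 7.14% were called at these doses, near the share of all genes at 250 mg/kg and below it at 500 mg/kg. Psme4 (Entrez Gene 103554), the activator that caps the core in nuclei, was the member that fell. It read 8.08, 8.18, 8.30, 7.99 and 8.11 with PBS, 7.92, 7.93, 7.97, 7.92 and 7.98 at 250 mg/kg, and 7.87, 7.95, 7.92, 7.90 and 7.84 at 500 mg/kg. No treated array of these doses reached the lowest PBS array. Psme4 fell by 0.19 ± 0.05 at 250 mg/kg (adjusted p = 0.018) and by 0.24 ± 0.05 at 500 mg/kg (adjusted p = 0.00063). Both calls were lost in fits to the 2 groups alone, and that at 250 mg/kg also without PBS arrays 20 or 32. Its slope over the doses was -0.08 ± 0.02 (adjusted p = 0.00012). Psma7 rose by 0.26 ± 0.06 at 500 mg/kg (adjusted p = 0.004), with arrays at 9.36, 9.39, 9.39, 9.32 and 9.34, all above the highest PBS array of 9.21. Psme1 rose by 0.30 ± 0.09 (adjusted p = 0.016), with 1 of its 5 treated arrays, at 9.08, among those of PBS. The call of Psme1 held in 6 of the 10 fits without 1 array, being lost without PBS arrays 20 or 32 or valproic acid arrays 6 or 28. It was also lost in a fit to the 2 groups alone. At 250 mg/kg the call of Psma7 (0.21 ± 0.06, adjusted p = 0.041) was lost in 5 of 7 alternative settings. The dose trend called 3 members higher and 1 lower, Psma7, Psmd13, Psme1 and Psme4, against 6.32% and 3.62% of all genes, 9.94% in all. That was 9.52% of the members, near the share of all genes. The amiodarone and valproic acid groups of day 11 share their PBS arrays. Of 6 hepatocyte markers 2 fell at 500 mg/kg, with a summed level of 15.25 to 15.33 against 15.31 to 15.38 with PBS, and their part in the proteasome values was not tested.

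The difference between the day 11 and day 1 effects of valproic acid at 500 mg/kg was called below 0 for 6 members and above 0 for 1. Of all genes 5.32% were called below 0 and 6.97% above 0, 12.3% in all. Called or not, 17 of the 42 members were above 0. Psmc5 had the largest such difference, -0.52 ± 0.12 (adjusted p = 0.0013), followed by Psmd14 at -0.44 ± 0.13 (adjusted p = 0.014) and Psmc2 at -0.37 ± 0.10 (adjusted p = 0.0052). The others were Psmd1, Psmc3 and Psme4, at -0.32 ± 0.10, -0.26 ± 0.09 and -0.23 ± 0.08. Psme4 stood at -0.01 on day 1 and had fallen on day 11, so its effect was the larger on day 11. Psmf1 was the member with the opposite sign, 0.36 ± 0.11 (adjusted p = 0.020). Between days 4 and 1, limma called 0 members, 3 had an unadjusted p under 0.05, and 6.07% of all genes were called. The count between days 11 and 1 was 7 with all arrays and 2 in a fit to the 4 groups concerned.

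Set against each other at their high doses, amiodarone and valproic acid differed in some members on each day. The doses of 60 and 500 mg/kg are those of different compounds and are not matched. Of the members 9.52%, 14.3% and 14.3% were called on days 1, 4 and 11. On day 1 this was below the share of all genes, and on days 4 and 11 above it. On day 1, 1 member was higher and 3 were lower with amiodarone (8.28% and 7.94% of all genes, 16.2% in all). These were Psmf1, higher by 0.28 ± 0.08, and Psmc5, Psmd13 and Psmc2, at -0.46 ± 0.09, -0.28 ± 0.09 and -0.20 ± 0.07. On day 4, 6 members were higher with amiodarone and 0 lower (4.86% and 3.69% of all genes, 8.55% in all). Psmf1 led by adjusted p (0.41 ± 0.08, adjusted p = 0.00025), with Psmd14 at 0.41 ± 0.10 and Psmb9 at 0.62 ± 0.21 (adjusted p = 0.047). Psma1, Psmd4 and Psmd8 differed by 0.32 ± 0.08, 0.32 ± 0.08 and 0.24 ± 0.08. On day 11, 6 were again higher with amiodarone and 0 lower (3.43% and 4.63% of all genes, 8.06% in all), with Psmd14 at 0.39 ± 0.09, Psmd5 at 0.37 ± 0.09 and Psmd1 at 0.33 ± 0.07. Psmd3, Psmd4 and Psme4 differed by 0.26 ± 0.08, 0.26 ± 0.07 and 0.18 ± 0.05. Psmd14 and Psmd4 were thus higher with amiodarone than with valproic acid on both later days.

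Psma7 was the member called most often, in 6 of the 15 treated groups and always higher. Its log2 fold changes there ran from 0.21 to 0.33. These are not 6 separate results, because groups of the same day were compared with the same PBS arrays. With valproic acid on day 4 the call held in 3 of the 8 fits without 1 array. At 250 mg/kg it held in 2 of 7 alternative settings and in 4 of the 10 fits without 1 array. Psmd14 and Psme1 were called in 3 each, 23 members in at least 1, and 19 in none. Among those never called were all 4 core chaperones Psmg1 to Psmg4, the inducible catalytic genes Psmb8, Psmb9 and Psmb10, and the thymus catalytic gene Psmb11. The lid genes Psmd6 and Psmd7 and the base chaperones Psmd9 and Psmd10 were also among them. The others were Psma2, Psma8, Psmb7, Psmc6, Psme3, Psmc3ip and Psme3ip1.

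The immunoproteasome genes gave no call against a vehicle. Psmb8, the inducible chymotrypsin-like subunit, ranged from -0.34 to 0.34 over the 15 treated groups, Psmb10 from -0.10 to 0.27 and Psmb9 from -0.32 to 0.62. On day 11 of amiodarone at 60 mg/kg, array 62 set their values. Psmb9 read 6.89, 6.46, 6.59 and 6.76 in the other 4 arrays and 8.50 in array 62, against 6.67, 6.51, 6.36, 6.80 and 7.04 with PBS. Psmb8 read 7.20, 6.60, 6.97 and 6.62 in the others and 8.53 in array 62, and Psmb10 8.05, 7.90, 8.22 and 7.72 in the others and 8.97 there. In all 3 genes array 62 was the highest of the 95 arrays, and the others of its group overlapped PBS. With all arrays Psmb9, Psmb8 and Psmb10 were at 0.36 ± 0.19, -0.00 ± 0.16 and -0.03 ± 0.11 relative to PBS. Without array 62 they were at -0.00, -0.34 and -0.23 (adjusted p = 1, 0.098 and 0.22).

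Other lists moved with array 62. Its median deviation was 1.39 for the 15 interferon genes, 0.48 for the 11 class I genes and 0.56 for the 12 Kupffer cell and macrophage markers. It was 0.02 for the 14 lymphocyte and NK cell markers, of which 11 lay below the array median in this group, so that median says little about these cells. The summed level of the 14 ran from 6.93 to 7.63 in the group and from 7.09 to 7.29 with PBS. The part of these cells or of interferon in the immunoproteasome values of that array was not tested.

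**Figure D5:**
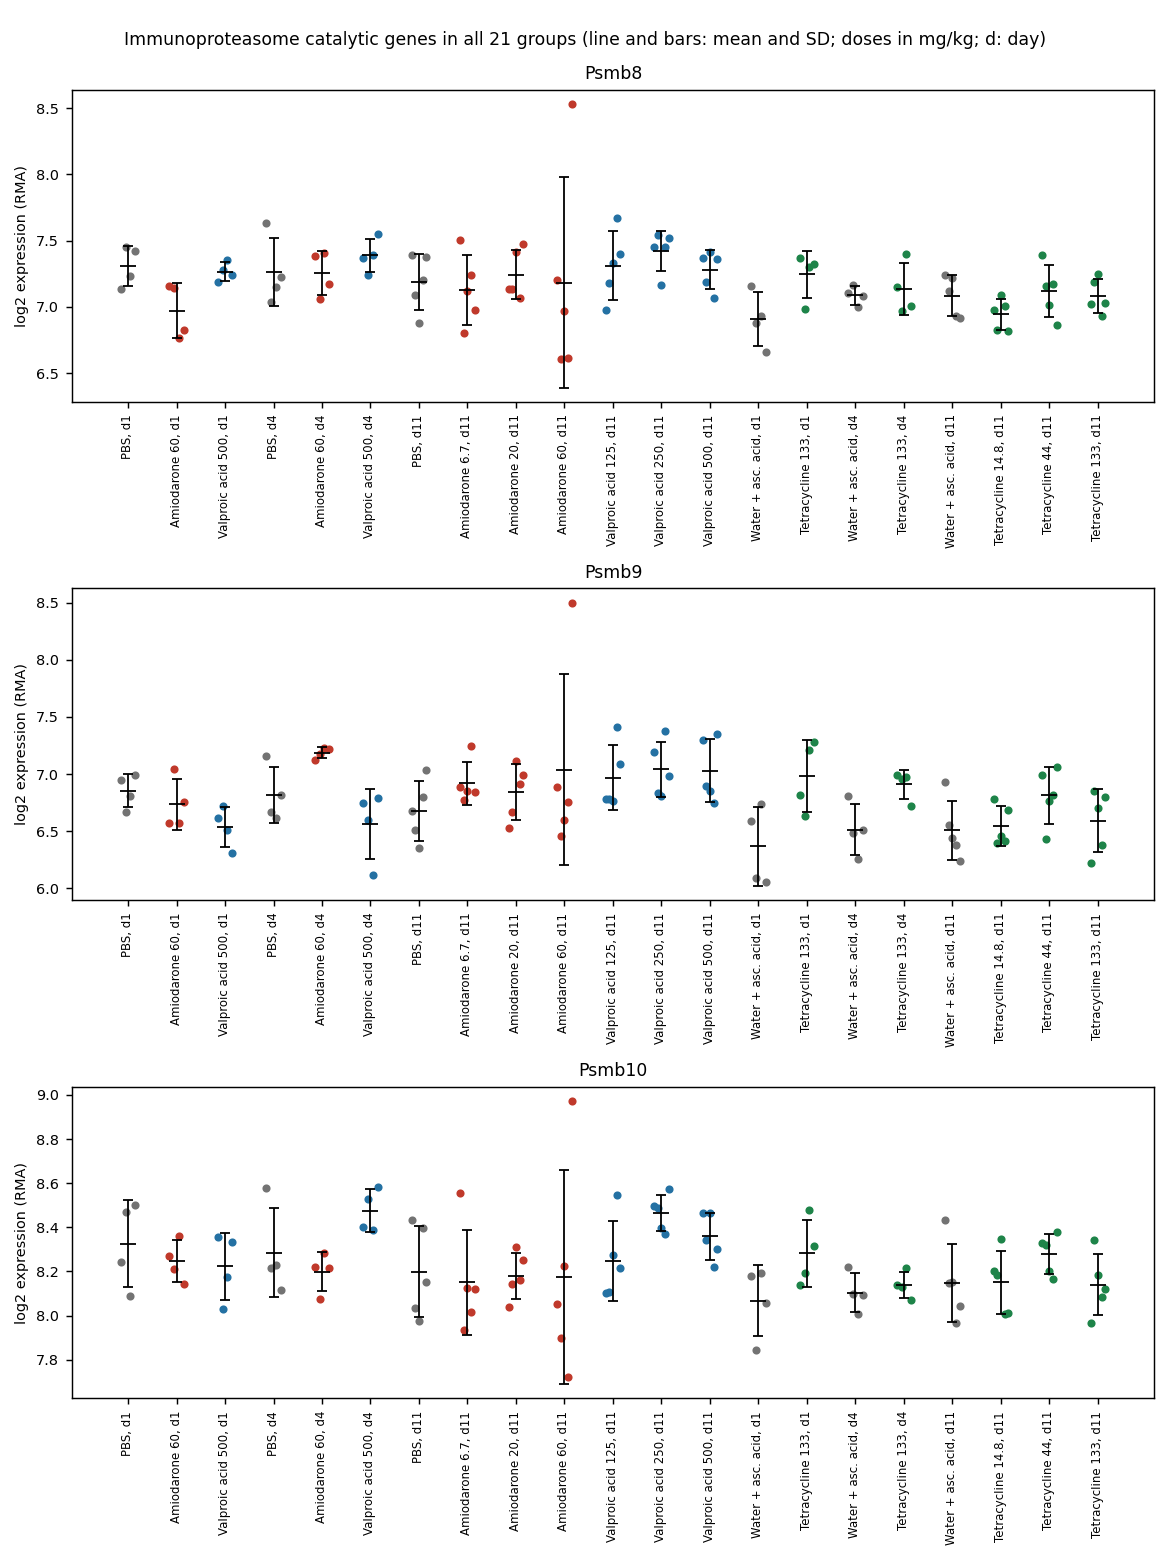
The panels show Psmb8, Psmb9 and Psmb10, each point 1 array, with log2 expression on the vertical axis, all 21 groups along the horizontal axis, and a black line with bars for the mean and SD. Array 62 of amiodarone at 60 mg/kg on day 11 stands at 8.53, 8.50 and 8.97, above every other array in each panel.

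Tetracycline gave 0 called members in limma at every dose and day. At 133 mg/kg, 5, 6 and 3 members had an unadjusted p under 0.05 on days 1, 4 and 11, and 0.65%, 0% and 0% of all genes were called. At 14.8 and 44 mg/kg the members at an unadjusted p under 0.05 were 0 and 4, with 0% and 0.0243% of all genes called. The largest difference was that of Psmb9 on day 1, 0.62 ± 0.21 (adjusted p = 0.16). It read 6.59, 6.09, 6.74 and 6.06 with the vehicle and 6.81, 6.63, 7.21 and 7.28 with tetracycline, with the lowest treated array among the vehicle arrays. On day 4 Psme4 was lower by an amount that did not pass, -0.21 ± 0.06 (adjusted p = 0.16), with no overlap between the arrays. Member medians over the tetracycline groups ran from -0.07 to 0.04. The vehicles themselves did not differ by the test in any member: limma called 0 of 42 on days 1, 4 and 11, with 6, 5 and 0 at an unadjusted p under 0.05 and 0.0911%, 0.0121% and 0% of all genes called. On day 1 the 4 inducible or thymus catalytic genes were all lower in the tetracycline vehicle than in PBS, with a median of -0.33. Of these 4, 3 had an unadjusted p under 0.05 in limma. The part of this in the tetracycline values of day 1 was not tested.

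Within groups the members varied together to a small degree. After the group means were subtracted, the median Pearson correlation over the 861 pairs of members was 0.133 across the 95 arrays, with 618 pairs above 0. Over the 39 members above the median gene it was 0.166, against 0.00679 among all genes above the median gene. These points share arrays and normalization, and the values are a description. Psma1 had the highest median correlation with the other members, 0.35, followed by Psmd4 at 0.32 and Psmd11 at 0.31. The closest single partners were Psmc4 and Psmd6 at 0.80. Medians were lowest for Psma8 and Psme3ip1, both at -0.06. Psmb8 had a median of 0.03 over the members, a correlation of 0.76 with Psmb10 and one of 0.71 with Psmb9, while Psme1 was closest to Psmb8 at 0.60. Array 62 enters these values. The median SD within groups was 0.132 over the members and 0.149 over all genes.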

How the data were processed

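The values are log2 expression deposited by the authors for 95 arrays and made with RMA (robust multi-array average), per the submitters' processing notes. The labels' protocols give biotin labelling of total RNA with a 3′ IVT kit. The version of RMA and the build of the probe annotation are not given in the sources used here. Of 17306 probe sets, 16464 carried 1 gene symbol and were tested, 842 carried none, and 0 carried several. Values ran from 1.68 to 13.9, and correlations between arrays from 0.977 to 0.996. All 42 members matched RefSeq by Entrez Gene ID.

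In limma 3.58.1 (R 4.3.3), 1 model with 21 group means and 74 residual degrees of freedom gave 31 comparisons: 15 against vehicle, 3 dose trends on rank of dose, 7 differences between days, 3 between compounds and 3 between vehicles. Group values are means ± SD and differences ± SE. Benjamini-Hochberg adjusted p-values cover the 16464 genes. The steps were tested on simulated data. Figures were drawn with matplotlib 3.10.9. Every member is named, up to 6 called members each way in a treated group and 3 each way elsewhere are given in full, and a preset list of subunits was followed whatever its values. Where 5 or fewer further members were called they are named too. The members, lists and rules were chosen with earlier results of these data known. Alternatives were array weights, fits restricted to the groups compared, leaving out dim genes, another quantile normalization, centring, blocks of 24 sample numbers, a variance trend and leaving out each array.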

Additional observations from a re-analysis of the deposited data

Results flagged for a closer look

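Members called against a vehicle were tested for an array far from the others, in the treated and vehicle groups of each call. The genes Psmb6 to Psmb10 were tested in all high-dose groups and their vehicles. Of these 152 tests 8 found such an array, about as many as the 1 in 20 that chance gives. The widest was Psmb9 with amiodarone at 60 mg/kg on day 11, at 8.50 in array 62 against 6.46 to 6.89 in the other 4 arrays. Psmb9 with tetracycline at 133 mg/kg on day 4 was lowest in array 60, at 6.72 against 6.96 to 6.99. Psmd5 with amiodarone at 60 mg/kg on day 4 was highest in array 93, at 8.24 against 8.00 to 8.03. Psma7 with valproic acid at 250 mg/kg was highest in array 67, at 9.40 against 9.28 to 9.31. The other far arrays belonged to vehicle groups. PBS array 87 of day 4 was highest for Psmc2, at 9.52 against 9.31 to 9.34, and for Psmd1, at 9.26 against 9.09 to 9.11. In the tetracycline vehicle, Psmb6 was lowest in array 85 of day 4, at 9.94 against 10.14 to 10.18, and Psmb7 was highest in array 16 of day 11, at 8.44 against 7.98 to 8.07.

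Differences between the effects of a compound on different days, or between compounds on a day, passed the test for 23 values. Between days 11 and 1 of valproic acid 16.7% of the members were called, against 12.3% of all genes. Between compounds 9.52%, 14.3% and 14.3% of the members were called on days 1, 4 and 11. The shares of all genes were 16.2%, 8.55% and 8.06%, so on day 1 the members were below the share of all genes. The effect of valproic acid at 500 mg/kg changed from day 1 to day 11 by -0.52 for Psmc5, -0.44 for Psmd14, -0.37 for Psmc2, -0.32 for Psmd1, -0.26 for Psmc3, -0.23 for Psme4 and 0.36 for Psmf1. Amiodarone minus valproic acid on day 1 was -0.46 for Psmc5, -0.28 for Psmd13, -0.20 for Psmc2 and 0.28 for Psmf1. On day 4 it was 0.62 for Psmb9, 0.41 for Psmd14, 0.41 for Psmf1, 0.32 for Psma1, 0.32 for Psmd4 and 0.24 for Psmd8. On day 11 it was 0.39 for Psmd14, 0.37 for Psmd5, 0.33 for Psmd1, 0.26 for Psmd3, 0.26 for Psmd4 and 0.18 for Psme4. The sign of Psmf1 was opposite to that of the other members that passed in the change between days and on day 1.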

How the results depend on the processing

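Of the 42 calls of a member against vehicle, 17 held in every alternative setting and in every fit without 1 array. The calls were lost in 36 of 294 fits under another setting and in 66 of 360 fits without 1 array, and in 0 of these fits did a called member change sign. For the values of the followed members alone, called or not, 2206 were counted as kept, 26 passed newly, 20 were lost and 4 moved without a call. A called value was kept when it stayed called with the same sign. A value called in neither fit was kept when it changed by less than the SD of the gene within groups, whatever its sign. Otherwise it had moved. The 20 members called with amiodarone on day 4 became 14 when the values were quantile normalized again and 14 in a fit of only the arrays compared, and 12 to 20 of the original genes were among those called under each setting. With only the arrays compared, the counts were 3 in place of 7 for amiodarone at 60 mg/kg on day 11, 3 in place of 9 for valproic acid at 500 mg/kg on day 1, 0 in place of 2 for 250 mg/kg, 2 in place of 7 for days 11 and 1 of valproic acid, and 2 in place of 4 for the compounds on day 1. A fit of fewer arrays has fewer degrees of freedom. With dim genes left out the counts were 11 for amiodarone on day 11, 3 in place of 1 for valproic acid on day 4, 5 in place of 3 for 500 mg/kg on day 11 and 1 in place of 0 for days 4 and 1 of valproic acid. Another quantile normalization gave 5, 11 and 10 for 500 mg/kg on day 11, days 11 and 1 of valproic acid and the compounds on day 11, where 3, 7 and 6 had been called. It gave 1 for 250 mg/kg and 1 for days 4 and 1. Array weights gave 2 for valproic acid on day 4, 1 for 250 mg/kg and 1 for days 4 and 1. Centring each array gave 1 for 250 mg/kg, and blocks of sample numbers gave 1 for 250 mg/kg and 1 for days 4 and 1.

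Leaving out each array in turn gave 13 to 19 members for amiodarone on day 4 (13 without array 69), 4 to 8 on day 11 and 4 to 8 for its dose trend (4 without array 31 in both), and 0 to 1 for days 4 and 1 (1 without PBS array 82). For valproic acid it gave 7 to 12 on day 1, 0 to 1 on day 4 (0 without PBS arrays 41, 44 or 87 or arrays 4 or 8), 0 to 3 at 250 mg/kg (0 without PBS array 20, 1 without PBS arrays 32 or 90 or arrays 51 or 67), 2 to 4 at 500 mg/kg on day 11 and 3 to 5 for its trend. The change from day 1 to 11 ran from 3 to 7 (3 without PBS array 32, 4 without PBS array 3 or arrays 80 or 81), and that from day 1 to 4 from 0 to 1 (1 without PBS arrays 50 or 41 or arrays 23, 79 or 4). Between compounds the counts were 2 to 5 on day 1 (2 without arrays 1, 13, 80 or 95), 4 to 6 on day 4 and 4 to 7 on day 11. The cause of these changes was not tested. No paired analysis was possible because the sample numbers are unique across the groups. The labels do not say that blocks of sample numbers mark a batch.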
